A study of Mus musculus with 5 samples.

Results

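The genes described here are 31 genes of cholesterol metabolism in mouse liver, taken by symbol from the 33589 rows of the deposited expression table. They comprise 19 enzymes of sterol synthesis (8 of the mevalonate branch and 11 that lead through squalene to cholesterol), 4 regulators of the transcription factor SREBP2, 2 genes of cholesterol uptake and transport, and 6 genes of the liver X receptors (LXR) and of cholesterol efflux. RNA-seq was done on 5 livers of male mice that were 6 weeks old and received a high-fat diet for 4 weeks. In the 3 knockout livers (Lyve1-Cre;Hegfl/fl) a Cre recombinase under control of Lyve1 was combined with floxed Heg1, and in the 2 control livers (Hegfl/fl) the same floxed gene was present without Cre. All 5 livers thus shared the floxed gene and the high-fat diet. Whether each library came from a separate animal is not stated, and the errors below describe variation between libraries. Lyve1 is a gene of lymphatic and liver sinusoidal endothelial cells, so hepatocytes, which make most liver cholesterol, are not the cells that Lyve1 marks. Heg1 encodes an endothelial transmembrane receptor. Although the title of the series names hepatocytes, the tissue label is liver, and the values are described as those of liver. The design asks how gene expression in such livers differs between these genotypes. Cre was present only in the knockouts, so Cre itself and the deletion cannot be told apart.

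Cells make cholesterol from acetyl-CoA through mevalonate, isoprenoid diphosphates, squalene and lanosterol. When sterol in the endoplasmic reticulum is low, SCAP escorts SREBP2 to the Golgi, where it is cleaved, and its freed part turns on the genes of synthesis and uptake. INSIG proteins hold SCAP back when sterol is plentiful. LXR act in the opposite sense: bound by oxysterols, they turn on ABC transporters that export cholesterol, in liver also into bile.

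Promoters of the synthesis genes are known to bind SREBP2 next to the factor NF-Y, and 5 promoters are shown because they carry, or lack, these letters next to genes whose levels are given below. RefSeq promoters (build GRCm38.p6) matched 26 of the 31 genes. The stretch shown is the 250 bases before the RefSeq start site. Capitals mark the NF-Y box CCAAT and the sterol element TCACNCCAC, or its shorter form TCACNCCA, on either strand. RefSeq starts can differ from the GENCODE gene positions, and the stretches of Idi1 and Srebf2 reach past the GENCODE starts of these genes (8885501 and 82147181).
Hmgcs1, chr13:119690101-119690350, plus strand: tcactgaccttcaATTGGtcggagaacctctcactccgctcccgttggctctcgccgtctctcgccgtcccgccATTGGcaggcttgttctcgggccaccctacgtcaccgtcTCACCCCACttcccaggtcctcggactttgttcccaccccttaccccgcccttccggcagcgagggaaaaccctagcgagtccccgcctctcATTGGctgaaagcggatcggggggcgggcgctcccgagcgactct
Idi1, chr13:8885356-8885605, plus strand: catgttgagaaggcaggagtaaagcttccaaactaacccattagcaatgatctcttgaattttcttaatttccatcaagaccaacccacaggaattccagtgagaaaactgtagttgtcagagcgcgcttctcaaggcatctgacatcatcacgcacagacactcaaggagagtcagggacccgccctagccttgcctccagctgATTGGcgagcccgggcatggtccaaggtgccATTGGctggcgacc
Nsdhl, chrX:72918271-72918520, plus strand: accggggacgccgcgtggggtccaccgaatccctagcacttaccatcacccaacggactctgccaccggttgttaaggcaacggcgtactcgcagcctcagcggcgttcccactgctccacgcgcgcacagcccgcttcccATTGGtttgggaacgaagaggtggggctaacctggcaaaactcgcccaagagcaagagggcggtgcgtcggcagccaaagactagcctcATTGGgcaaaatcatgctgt
Srebf2, chr15:82147019-82147268, plus strand: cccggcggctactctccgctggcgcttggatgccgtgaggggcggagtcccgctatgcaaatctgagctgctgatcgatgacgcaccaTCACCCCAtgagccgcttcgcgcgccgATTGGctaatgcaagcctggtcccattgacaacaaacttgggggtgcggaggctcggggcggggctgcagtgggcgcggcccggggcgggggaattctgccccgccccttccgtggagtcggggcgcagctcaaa
Abcg5, chr17:84683012-84683261, minus strand: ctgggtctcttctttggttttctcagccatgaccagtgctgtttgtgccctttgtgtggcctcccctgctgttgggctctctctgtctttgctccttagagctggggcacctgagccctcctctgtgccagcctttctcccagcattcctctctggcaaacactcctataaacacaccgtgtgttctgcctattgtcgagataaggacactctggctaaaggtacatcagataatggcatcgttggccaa
Hmgcs1, the enzyme that makes HMG-CoA, held 3 NF-Y boxes and the full sterol element, which began 137 bases before the start site. Idi1 and Nsdhl held 2 NF-Y boxes each, Srebf2 held 1 and the shorter sterol element, and Abcg5 held neither. Ebp, Mylip and Abcg8, with log2 fold changes of -0.020, -0.15 and -0.27, held NF-Y boxes too. Whether the letters go with the fold changes was not tested. A CCAAT match was present for 15 of 16 synthesis enzymes with a promoter and for 1 of 5 LXR and efflux genes. It was present for 37.5% of all 27025 genes with a promoter and for 40.7% of the 8501 genes that were also tested for expression. The GC box GGGCGG, which often accompanies NF-Y boxes in promoters rich in C and G, was present for 14 of 16 synthesis enzymes, against 63.4% of tested genes. The full sterol element was found for 1 of 26 genes (1.42% of tested genes), Hmgcs1, and the shorter form, which every full match contains, also for Msmo1 and Srebf2 (4.22% of tested genes). The spaced LXR repeat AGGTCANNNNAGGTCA was found for 0 of 26 genes and for 0.0148% of all genes. These matches describe letters in a window and are not measured binding.

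Levels are in FPKM, fragment numbers divided by transcript length and by the size of the library, which sum to between 797700 and 820500 per library. How deeply each library was sequenced is unknown. The targeted gene Heg1 had 0.45, 0.43 and 0.50 FPKM in the knockout livers, against 0.48 and 0.35 FPKM in the control livers. Its mean was thus not lower in knockouts (0.46 against 0.415 FPKM), and these values do not show the deletion. At such low levels, in liver where endothelial cells are a minority, Heg1 checks the labels only weakly. Lyve1 had 3.90, 7.32 and 10.49 FPKM in knockouts, against 7.34 and 8.92 FPKM in controls. The hepatocyte markers Alb, Apoa1, Ttr, Cps1, Tat and Serpina1c were abundant in every liver, with sums from 67990 to 82250 FPKM in knockouts and from 81290 to 83260 FPKM in controls. Summed over 6 erythrocyte markers, knockouts 1, 2 and 3 had 1329, 243.9 and 140.5 FPKM, against 135.8 and 146.1 FPKM in controls, with the membrane protein gene Slc4a1 at 0 in every liver but knockout 1. The 5 cholangiocyte markers summed to between 51.2 and 72.4 FPKM in knockouts and to between 29.7 and 40.6 FPKM in controls. Most of each sum was Spp1. All 3 that could be tested were higher by sign, as were 64.2% of all rows. Of these 3, Spp1 did not overlap between the groups, whereas Krt19 and Epcam did. Kupffer cell markers were higher by sign in 5 of 5, with sums from 172 to 208.2 FPKM in knockouts and of 122 and 215.2 FPKM in controls, which overlapped. The 6 endothelial markers (88.8 to 112 FPKM in knockouts, 90.2 to 103.5 FPKM in controls) and the 6 stellate cell markers (81.7 to 119.3 FPKM in knockouts, 101.6 to 114.7 FPKM in controls) overlapped, and the 4 lymphocyte markers with a row summed to between 3.36 and 4.35 FPKM in knockouts and to 2.23 and 2.60 FPKM in controls. The part of these cell types in the results was not tested, and in whole liver fewer cells of a type and less RNA per cell cannot be told apart.

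Most cholesterol synthesis genes had higher mean levels in knockout livers, but no single gene passed the test over all genes. Of the 31 genes, all of which reached the minimum mean of 1 FPKM, 26 had a positive log2 fold change, where 64.2% of the 10820 rows tested did. With limma and Benjamini-Hochberg adjustment 0 of 31 passed, against a background of 0.0% of all rows, and their adjusted p lay between 0.675 and 0.981. At an unadjusted p below 0.05 there were 11 higher genes (5.29% of all rows) and 1 lower gene (1.71% of all rows). The 11 became 17 without knockout 2 (4.45% of all rows), 7 without knockout 1 (5.28%) and 7 without control 1 (3.78%). The groups did not overlap for 12 genes, each higher in all 3 knockouts than in either control, where 18.9% of all rows did so, and for 0 lower genes (6.38% of all rows). Without control 2 the 12 became 24, beside 37.4% of all rows. With median-of-ratios scaling the counts were 10 higher and 2 lower genes, Abcg5 and Mylip, against 11.9% and 12.1% of all rows. The share of all rows with a positive fold change was then 50.7%, and 25 of the 31 genes were still positive. The median log2 fold change was 0.61 for the synthesis enzymes, 0.39 for the SREBP2 regulators and 0.00 for the LXR and efflux genes, beside 0.061 for all rows tested.

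**Figure D1:**
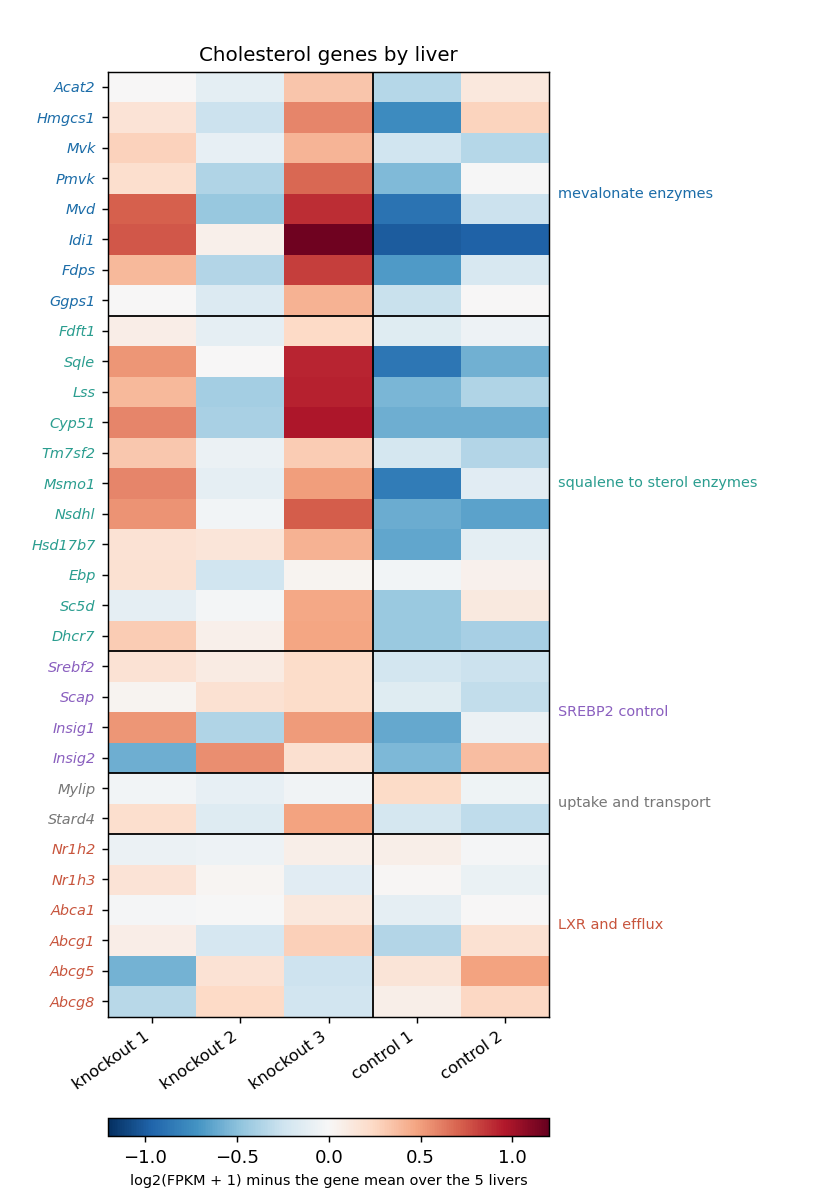
Relative level of each of the 31 genes (rows, grouped by role) in each of the 5 livers (columns, knockouts left of controls), as log2(FPKM + 1) minus the mean of that gene over the 5 livers. Knockout 3 is the highest liver for 16 of the 19 synthesis enzymes and control 1 the lowest for 14, while the LXR and efflux rows show no such order.

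In the mevalonate branch all 8 enzymes had a positive log2 fold change, from 0.18 to 1.64, with a median of 0.47. Idi1, which isomerises isopentenyl diphosphate (ENSMUSG00000058258.14, chromosome 13, 8885501 to 8892451, GRCm38), had 51.93, 31.95 and 69.94 FPKM in the knockout livers, against 14.82 and 15.18 FPKM in the control livers. The lowest knockout thus lay far above both controls, which were close to each other. Idi1 differed by 1.64 on the log2 scale (SE 0.30, 95% interval 0.92 to 2.35, limma adjusted p = 0.675), a 3.12-fold difference on the log2(FPKM + 1) scale. Mvk, mevalonate kinase, had 12.95, 9.73 and 14.28 FPKM in knockouts, against 8.75 and 8.05 FPKM in controls, and these groups did not overlap either.

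The other 6 enzymes of this branch overlapped between the groups. Thus 2 of 8 (25.0%) were higher without overlap, where 18.9% of all rows were. Mvd, which decarboxylates mevalonate diphosphate, had 7.41, 2.74 and 8.43 FPKM in knockouts, against 1.77 and 3.27 FPKM in controls, so that knockout 2 lay between the controls. Fdps, which makes farnesyl diphosphate and was the most abundant enzyme of the branch, had 122.9, 73.04 and 167.69 FPKM in knockouts, against 58.25 and 81.97 FPKM in controls. Pmvk, phosphomevalonate kinase, had 21.89, 14.48 and 30.94 FPKM in knockouts, against 12.75 and 18.84 FPKM in controls. In each of these 3 genes knockout 2 lay below control 2. Hmgcs1 had 24.59, 18.16 and 33.25 FPKM in knockouts, against 12.53 and 26.62 FPKM in controls, and its log2 fold change of 0.41 was -0.11 without control 1. Acat2, the cytosolic thiolase that starts the pathway, had a log2 fold change of 0.18, which was -0.053 without control 1. Ggps1, which makes geranylgeranyl diphosphate, averaged 4.55 ± 1.18 FPKM in knockouts and 3.73 ± 0.64 FPKM in controls (SD, n = 3 and 2). Reads of Acat2 may be shared with its close paralog Acat3, and 26.7% of the exonic bases of Fdps are also annotated to another gene on the same strand.

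Between squalene and cholesterol 10 of 11 enzymes had a positive log2 fold change, with a median of 0.70. The groups of 7 did not overlap, each higher in knockouts, where 18.9% of all rows did so. Sqle, squalene epoxidase (chromosome 15, 59315077 to 59331192), had 17.93, 12.19 and 23.78 FPKM in knockouts, against 6.21 and 7.80 FPKM in controls. Nsdhl, a sterol dehydrogenase of the demethylation steps (chromosome X, 72918557 to 72958514), had 25.58, 16.92 and 29.40 FPKM in knockouts, against 11.13 and 10.75 FPKM in controls. Dhcr7, which completes cholesterol by reducing 7-dehydrocholesterol (chromosome 7, 143823145 to 143848410), had 36.62, 30.66 and 41.29 FPKM in knockouts, against 21.35 and 22.06 FPKM in controls. In these 3 genes every knockout lay above both controls, knockout 3 was the highest and knockout 2 the lowest of the knockouts. Their log2 fold changes were 1.21 (SE 0.26) for Sqle, 1.03 (SE 0.22) for Nsdhl and 0.70 (SE 0.14) for Dhcr7, each with a limma adjusted p of 0.675.

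Cyp51, the lanosterol demethylase, had 24.09, 11.70 and 31.76 FPKM in knockouts, against 10.13 and 10.09 FPKM in controls. Here knockout 2 was only slightly above the controls, and the log2 fold change of 0.98 had an SE of 0.37. Msmo1, the sterol methyl oxidase, had 49.78, 30.34 and 47.10 FPKM in knockouts, against 17.92 and 29.82 FPKM in controls, and knockout 2 and control 2 were again close. Hsd17b7, the ketosteroid reductase of the same steps, had 8.17, 8.03 and 9.91 FPKM in knockouts, against 4.31 and 6.53 FPKM in controls. Tm7sf2, a sterol reductase, had 64.31, 48.93 and 63.42 FPKM in knockouts, against 44.19 and 40.07 FPKM in controls. The groups of these 4 genes did not overlap, but with median-of-ratios scaling or quantile normalization those of Msmo1 did. Of the exonic bases of Tm7sf2, 12.1% are also annotated to Vps51 on the same strand.

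The other 4 enzymes overlapped between the groups. Lss, lanosterol synthase, had 11.80, 6.34 and 17.52 FPKM in knockouts, against 5.68 and 6.6 FPKM in controls, a log2 fold change of 0.76 (SE 0.36). Fdft1, squalene synthase, averaged 32.7 ± 4.05 FPKM in knockouts and 28.8 ± 1.11 FPKM in controls. It had the smallest spread of the 19 enzymes, the highest liver being 1.31 times the lowest, while Idi1 spanned 4.72 times and Mvd 4.76 times. The most abundant enzymes were Ebp, the sterol isomerase, and Sc5d, the sterol desaturase. Ebp had 147.12, 109.49 and 133.09 FPKM in knockouts, against 126.86 and 134.77 FPKM in controls, and its log2 fold change of -0.020 was 0.023 without control 2 and 0.097 without knockout 2. Sc5d averaged 143 ± 32.1 FPKM in knockouts and 118.7 ± 32.9 FPKM in controls, and its log2 fold change of 0.27 was -0.010 without control 1. Of the exonic bases of Fdft1, 18.3% lie opposite exons of Ctsb, and without a stated strand setting the reads of both cannot be told apart there.

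**Figure D2:**
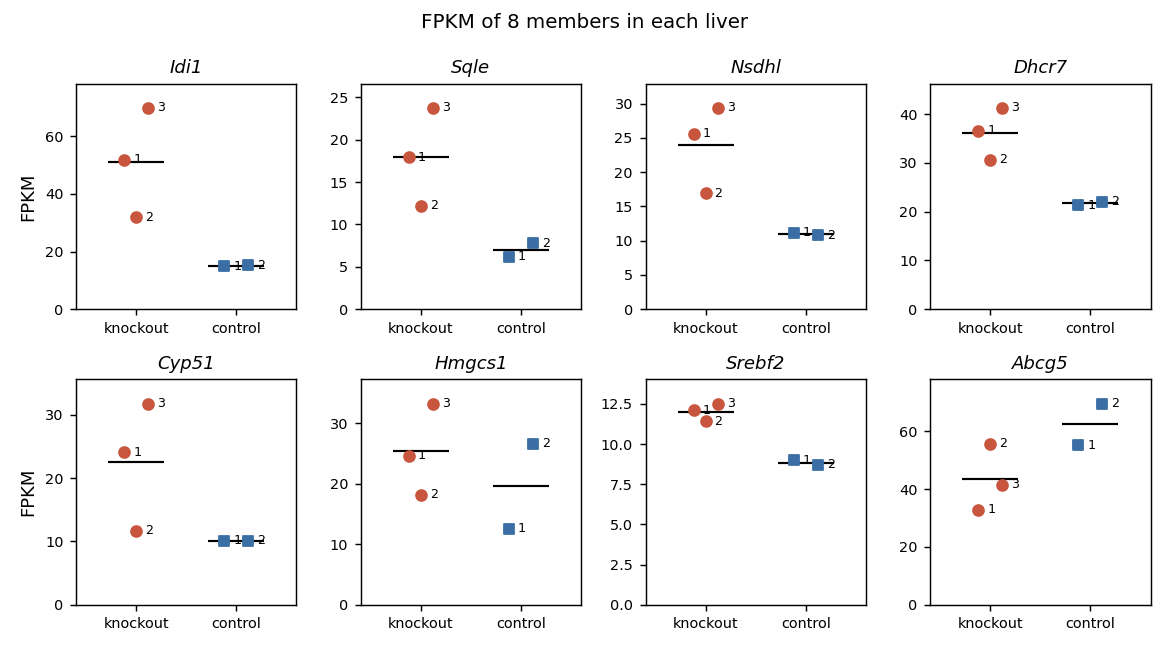
FPKM (vertical axes, from 0) of 8 genes in each liver, with knockouts (circles) left of controls (squares), replicate numbers beside the points and a horizontal line at the group mean. Every knockout lies above both controls for Idi1, Sqle, Nsdhl, Dhcr7, Cyp51 and Srebf2, whereas Hmgcs1 and Abcg5 overlap.

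Among the regulators, Srebf2, which encodes SREBP2 itself, had a small difference with little spread. It had 12.11, 11.42 and 12.52 FPKM in knockouts, against 8.98 and 8.72 FPKM in controls, a log2 fold change of 0.40 (SE 0.10, limma adjusted p = 0.689). Scap had 29.01, 32.32 and 33.13 FPKM in knockouts, against 25.51 and 22.79 FPKM in controls, with a log2 fold change of 0.37 (SE 0.11). For both genes the 3 knockouts lay close together and above both controls, so that knockout 2 did not stand apart from the other knockouts as it did for the enzymes. Insig1, itself a target of SREBP2, had 85.75, 45.61 and 84.38 FPKM in knockouts, against 38.27 and 56.31 FPKM in controls, with knockout 2 between the controls. Insig2, which is not driven by SREBP2 in the same way, had 39.79, 89.65 and 69.20 FPKM in knockouts, against 41.36 and 78.32 FPKM in controls. Its livers were ordered otherwise, with knockout 2 highest, and its log2 fold change of 0.14 was -0.31 without control 1 and -0.12 without knockout 2. The ratio of Insig1 to Insig2 was 2.16, 0.509 and 1.22 in knockouts, against 0.925 and 0.719 in controls, which overlapped.

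Stard4, a carrier of cholesterol between membranes, had 24.10, 18.61 and 29.51 FPKM in knockouts, against 17.94 and 16.69 FPKM in controls, without overlap. Its log2 fold change was 0.43 (SE 0.19, limma adjusted p = 0.708), and with median-of-ratios scaling or quantile normalization its groups overlapped. Mylip, a ubiquitin ligase induced by LXR that removes lipoprotein receptors from the cell surface, had 5.46, 5.2 and 5.41 FPKM in knockouts, against 6.77 and 5.38 FPKM in controls, a log2 fold change of -0.15 (SE 0.13).

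Of the 6 LXR and efflux genes 3 had a positive log2 fold change, against 18 of 19 synthesis enzymes. Nr1h3, which encodes LXRα, had 77.23, 70.12 and 62.71 FPKM in knockouts, against 69.68 and 65.11 FPKM in controls, and Nr1h2, which encodes LXRβ, averaged 23.6 ± 1.34 FPKM in knockouts and 24.4 ± 0.98 FPKM in controls. The log2 fold change of Nr1h3, 0.050, was -0.017 with median-of-ratios scaling and -0.022 without knockout 1. Abca1, which loads cholesterol onto apolipoprotein A-I, had 18.74, 18.85 and 20.82 FPKM in knockouts, against 17.49 and 19.01 FPKM in controls, and its 95% interval of -0.17 to 0.34 held 0. Abcg1, which exports cholesterol from macrophages to lipoproteins in particular, had 2.19, 1.62 and 2.67 FPKM in knockouts, against 1.36 and 2.42 FPKM in controls. Its log2 fold change of 0.14 was -0.13 without control 1.

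Abcg5 and Abcg8, whose products pair to move sterol into bile, stood at lower values in 2 of the 3 knockouts. Abcg5 (chromosome 17, 84658234 to 84683011) had 32.91, 55.69 and 41.45 FPKM in knockouts, against 55.23 and 69.57 FPKM in controls. Abcg8, its neighbour on the opposite strand (84676302 to 84700333), had 34.12, 51.25 and 36.88 FPKM in knockouts, against 45.54 and 51.81 FPKM in controls. In both genes knockouts 1 and 3 lay below either control while knockout 2 lay between the controls, the same liver that had the lowest synthesis enzymes of the knockouts. The controls did not show this opposite order. Control 1 lay below control 2 for both genes and also in the mean relative level of the synthesis enzymes (-0.53 against -0.23). The log2 fold change was -0.54 (SE 0.22, limma adjusted p = 0.700) for Abcg5 and -0.27 (SE 0.18, limma adjusted p = 0.776) for Abcg8. With 1 library left out at a time, Abcg5 ran between -0.73 (without knockout 2) and -0.36 (without knockout 1), and Abcg8 between -0.44 and -0.16 without the same livers. Without control 2 they stood at -0.37 and -0.18.

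**Figure D3:**
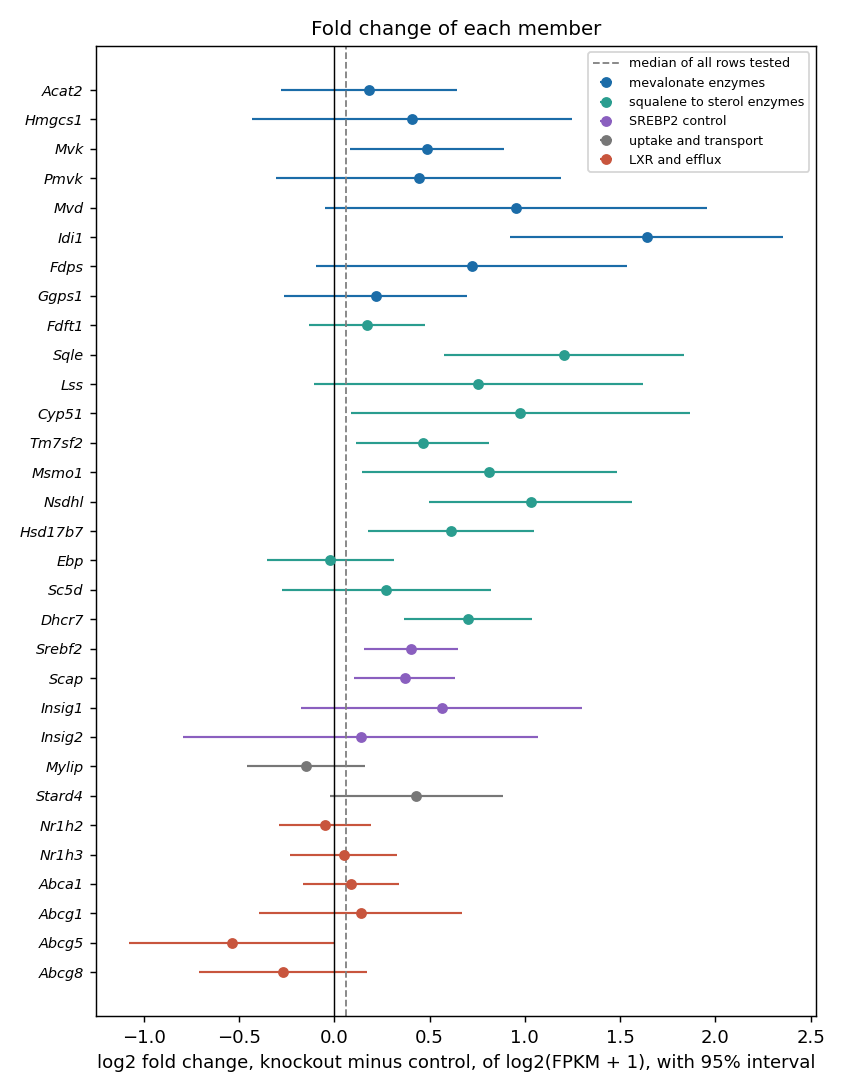
Log2 fold change of each gene, knockout minus control, on log2(FPKM + 1), with its 95% interval from limma (horizontal axis), coloured by role; the dashed line marks the median of all rows tested. The intervals of Idi1, Sqle, Nsdhl and Dhcr7 lie furthest above 0, the interval of Abcg5 ends at 0 from below, and those of the other LXR and efflux genes hold 0.

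The livers of 1 genotype also differed among themselves. Summed over the 19 synthesis enzymes, knockouts 1, 2 and 3 had 806.0, 604.0 and 970.4 FPKM, against 499.3 and 620.6 FPKM in controls 1 and 2. Knockout 2 thus lay between the controls in the summed level, which Ebp, Sc5d and Fdps dominate. Relative to the mean of the 5 livers on the log2 scale, where each enzyme counts equally, the levels were 0.32, -0.15 and 0.59 in knockouts, against -0.53 and -0.23 in controls. Knockout 2 was the lowest knockout for 18 of 19 enzymes and lay below control 2 for 10 of 19. Knockout 3 lay above both controls for 18 of 19 enzymes, knockout 1 for 15 and knockout 2 for 9.

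Leaving out knockout 1, which carried the high erythrocyte transcripts, gave a median of 0.65 for the synthesis enzymes. The median was 0.71 without knockout 2, 0.44 without knockout 3, 0.48 without control 1 and 0.85 without control 2. Control 1, the lowest liver for 14 of the 19 enzymes, also had the lowest sums of Kupffer cell, cholangiocyte, erythrocyte and lymphocyte markers. Its hepatocyte sum was the highest of all livers, while its endothelial and stellate cell sums lay within the range of the others. Without control 1, 15 of 19 enzymes kept a positive fold change.

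**Figure D4:**
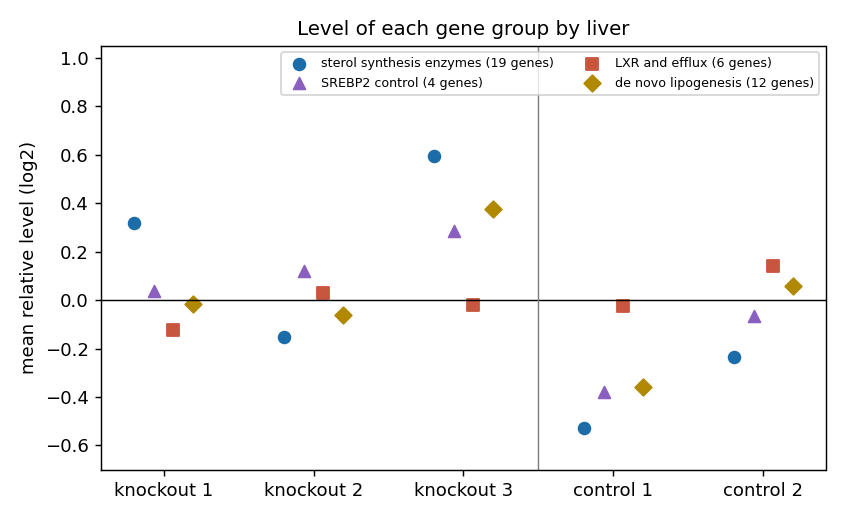
Mean relative level (log2(FPKM + 1) minus the mean over the 5 livers, vertical axis) of 4 gene groups in each liver, knockouts left of controls. Synthesis enzymes reach 0.59 in knockout 3 and stand at -0.15 in knockout 2, close to the -0.23 of control 2, while LXR and efflux genes stay between -0.12 and 0.14. Fatty acid synthesis (de novo lipogenesis) genes are likewise highest in knockout 3 (0.38) and lowest in control 1 (-0.36).

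Another 51 genes of cholesterol handling, in 5 lists, were examined beside the 31. Of 11 genes that cleave SREBP or degrade sterol-regulated proteins, 8 were higher by sign and 0 passed, with a median log2 fold change of 0.089. Mbtps2, the site-2 protease that frees SREBP from the membrane, had 1.71, 2.06 and 2.52 FPKM in knockouts, against 1.51 and 1.58 FPKM in controls (log2 fold change 0.28, SE 0.16). Of 16 genes of lipoprotein uptake and intracellular cholesterol, 14 were tested, 10 were higher by sign and 0 passed, with a median of 0.053, which was -0.0090 with median-of-ratios scaling (7 of 14 higher). Npc1, which releases cholesterol from lysosomes, had 41.32, 42.39 and 43.87 FPKM in knockouts, against 33.12 and 28.30 FPKM in controls, without overlap (log2 fold change 0.46, SE 0.11, limma adjusted p = 0.675). Gramd1a, which carries cholesterol from the plasma membrane to the endoplasmic reticulum, averaged 5.88 ± 0.15 FPKM in knockouts and 4.54 ± 0.43 FPKM in controls. Soat2, which esterifies cholesterol for storage and secretion, had 10.44, 10.32 and 13.89 FPKM in knockouts, against 14.67 and 14.78 FPKM in controls, so that all 3 knockouts lay below both controls (log2 fold change -0.34, SE 0.15, limma adjusted p = 0.708).

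Enzymes that take isoprenoids away from sterols had a median of 0.022, with 5 of 10 higher by sign and 0 passing, and the median was -0.041 with median-of-ratios scaling. Fntb, Pggt1b and Rabggtb, subunits of protein prenyltransferases, had log2 fold changes of 0.17, 0.13 and 0.16, and that of Rabggtb was -0.017 without control 2. Among 7 partners of sterol enzymes 6 were higher by sign, among them Aacs at 0.00 (named after its value was seen), and 0 passed, with a median of 0.13. Without knockout 3, and likewise with the replicate block, 3 of 7 were higher with a median of -0.023, and with median-of-ratios scaling 4 of 7 were higher. Cyb5r3, which supplies electrons to the oxidases, averaged 292 ± 14.7 FPKM in knockouts and 233 ± 13.3 FPKM in controls, and Erg28, a scaffold of sterol enzymes known from yeast, averaged 49.0 ± 9.50 FPKM in knockouts and 38.9 ± 0.085 FPKM in controls. Both had groups that did not overlap, higher in knockouts (18.9% of all rows), but with median-of-ratios scaling those of Erg28 overlapped. Lbr, which also has sterol reductase activity, had a log2 fold change of 0.13, which was -0.0030 without control 1 and -0.035 without knockout 3. Of 6 tested LXR partners and other LXR targets 3 were higher by sign and 0 passed, with a median of -0.040 that was 0.028 without control 2. Rxra, the partner receptor, had a log2 fold change of 0.18 (SE 0.12) and Lpcat3, a phospholipid enzyme, -0.12 (SE 0.14). Srebf1, the sister gene of Srebf2, had 107.94, 103.38 and 139.27 FPKM in knockouts, against 126.00 and 228.78 FPKM in controls. Its log2 fold change of -0.55 (SE 0.26) was -0.12 without control 2.

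Fatty acid synthesis genes, which SREBP1 drives, were set beside the synthesis enzymes as the most similar pathway. Their median log2 fold change was 0.15, with 8 of 12 higher by sign and 0 passing. Their mean relative levels were -0.014, -0.062 and 0.38 in knockouts, against -0.36 and 0.057 in controls. Knockout 3 was thus the highest liver and control 1 the lowest, as for the sterol enzymes. The groups of 1 of 12 did not overlap, higher in knockouts, where 18.9% of all rows did so. Without control 1 the median was -0.028 and 6 of 12 were higher. Without control 2 the median was 0.48 and 6 of 12 were higher without overlap, beside 37.4% of all rows. The difference between these lists and the 19 sterol enzymes, whose median was 0.61, was not tested. Acacb, the mitochondrial acetyl-CoA carboxylase, had 8.66, 11.97 and 16.52 FPKM in knockouts, against 6.38 and 6.29 FPKM in controls. Scd1, the fatty acid desaturase, had 272.23, 1037.39 and 661.06 FPKM in knockouts, against 152.31 and 424.85 FPKM in controls, and here knockout 2 was the highest liver. Acss2, which makes acetyl-CoA from acetate, averaged 50.9 ± 13.5 FPKM in knockouts and 37.2 ± 9.16 FPKM in controls.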

How the data were processed

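Paired-end RNA-seq libraries of 3 knockout and 2 control livers were grouped by their labels. The authors deposited FPKM per gene symbol with 2 decimals. HISAT2, StringTie, DESeq2 and the mm10 build are named in the submitters' processing notes, without versions or roles, and the strand setting is not given in the sources here. Both deposited tables held the same values in all 33589 rows, of which 220 repeat a symbol. In short genes of 1 exon at most between 32.4% and 38.5% of low values came within 0.1 of whole multiples of a step, so reads were not recovered and depth is unknown. FPKM are relative to the size of the library, so very abundant transcripts shift all others.

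Genotype was tested with limma (version 3.58.1, R 4.3.3; trended prior) on log2(FPKM + 1) of the 10820 rows with a mean of at least 1 FPKM, two-sided, with Benjamini-Hochberg adjustment over all rows and a threshold of 0.05. The procedure was tested on simulated data. Fold changes are knockout minus control on that scale, which understates the change of low genes. No label says that each library is a separate animal, and p-values may then reflect technical spread only.

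The members and lists were chosen with earlier results of these data known. All 31 members are named, with the 3 genes of smallest unadjusted p in each of 6 other lists (63 genes, 60 tested). Some genes of the pathway, among them genes that this rule takes, are not reported here. The promoter motifs were chosen after the values were seen. Gene positions are those of GENCODE M21 (GRCm38, the same assembly as mm10). Alternatives were a pseudocount of 0.1, filters of 0.1 and 5 FPKM or none, median-of-ratios scaling, quantile normalization, leaving out each library, and a block on the replicate number.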

Additional observations from a re-analysis of the deposited data

How the results depend on the processing

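None of the 31 genes passed an adjusted p of 0.05 under the 12 alternatives, and the smallest was 0.170 (Idi1, with the replicate number as a block). The sign held for 24 of the 31 under all alternatives run. It turned without a single library for Acat2 (range -0.053 to 0.42), Hmgcs1 (-0.11 to 0.92), Ebp (-0.11 to 0.097), Sc5d (-0.010 to 0.56), Insig2 (-0.31 to 0.59), Nr1h3 (-0.022 to 0.13) and Abcg1 (-0.13 to 0.41), and among other named genes for Rabggtb (-0.017 to 0.35), Lbr (-0.035 to 0.28) and Lyve1 (-0.51 to 0.10). Nr1h3 turned to -0.017 with median-of-ratios scaling and Lbr to -0.035 with the block; the cause was not tested. Leaving out 1 library at a time, where a lone control is assumed to vary like the other livers, the genes called over all rows were 0 to 1, the members without overlap in the higher direction 12 to 24 (beside 25.8% to 37.4% of all rows; the 12 without control 1 beside 32.7%), and the median of the synthesis enzymes 0.44 to 0.85. Fewer livers make overlap rarer for every gene. With the replicate block 5 genes were called over all rows and 0 of the 31. Knockout 3 has no partner and drops out of that contrast. Livers that share a number deviated from their group means with correlations of 0.23 and 0.20 across genes. The deviations of the 2 controls are exact opposites and those of the knockouts sum to 0, so these correlations are not independent. Only 2 numbers are shared and the labels give them no meaning, so whether they mark a batch or a pairing cannot be decided here. Heg1 and the genes under 1 FPKM were not fitted in the main test. Depth is unknown, and with 3 and 2 livers differences inside the spread of livers could not be detected.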
